A study of Phaseolus vulgaris with 2 samples.

Results

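HYH, BBX31, BBX32 and COL2 are 4 nuclear regulators of light signaling in common bean (Phaseolus vulgaris), and they are described here across the drought and control transcriptomes of the drought-tolerant cultivar Pinto Saltillo (PS). The genes were taken by identifier (Phvul.010G018200, Phvul.005G113200, Phvul.008G254400 and Phvul.008G022800) from a deposited table of 27197 genes. They were selected on their drought-control difference in these same libraries, because the study lists them among its representative genes with lower expression under drought. Their levels are therefore a description, and no result is supported by the direction they share. The gene symbols are those the study gives from the Arabidopsis orthologs, and no sequence of these genes was used here.

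The drought group consisted of wild-type PS plants that were 45 days old when irrigation was suspended for 2 weeks, and the control group of wild-type PS plants kept under irrigation. Aerial tissue of 6 to 9 plants was pooled, and the RNA was pooled again by condition before poly(A) libraries were made, so the table holds 1 value per gene and condition. There are no replicates, the spread between plants cannot be measured, and no p-value is given. In such bulk tissue, fewer cells of a type and less RNA per cell cannot be told apart. The study's methods state that all samples were harvested within the same morning hour. Expression is in FPKM (fragments per kilobase, adjusted for library size), and the log2 ratio is that of drought FPKM + 1 over control FPKM + 1, which understates the change of genes with low levels. The ratio was summarised over the 19661 genes with an FPKM of at least 1 in either library, with a median of -0.03, and all 4 regulators passed this filter.

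In plants, phytochromes, cryptochromes and UV-B receptors pass the light signal to a small group of transcription factors, and in darkness the ubiquitin ligase COP1 removes several of them. HYH is the homolog of HY5, a bZIP factor that promotes photomorphogenesis in Arabidopsis, the light-dependent form of seedling growth, and the pair dimerise and bind promoters of light-responsive genes. B-box (BBX) proteins are zinc-binding partners of this module and can raise or reduce HY5 activity. In Arabidopsis, BBX32 represses light responses, BBX31 is a small protein tied to CONSTANS and flowering as well as to UV-B responses, and COL2 belongs to the CONSTANS-like group, which carries a CCT domain beside its B-boxes.

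All 4 regulators had lower FPKM in the drought library. HYH (chromosome 10, 2822209 to 2825609) had 2.06 FPKM in drought and 40.2 FPKM in control plants, a log2 ratio of -3.75. This bZIP gene held 5.13% of its control level under drought. BBX31 (chromosome 5, 33005653 to 33006629) had 1.09 FPKM in drought and 23.9 FPKM in control plants, a log2 ratio of -3.57. Of the 4 regulators it had the lowest level in either library, and its drought level was close to the filter of 1 FPKM.

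BBX32 (chromosome 8, 56810922 to 56812031), the repressor of light responses, had 4.48 FPKM in drought and 39.6 FPKM in control plants, a log2 ratio of -2.89. COL2 (chromosome 8, 1954195 to 1956881) had 19.9 FPKM in drought and 95.7 FPKM in control plants, a log2 ratio of -2.21. COL2 was the most abundant of the 4 in both conditions and the least changed. Coordinates are those of the deposited table, whose identifiers end in version 1.0 of the bean annotation. No regulator shared its locus with another listed gene.

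**Figure D1:**
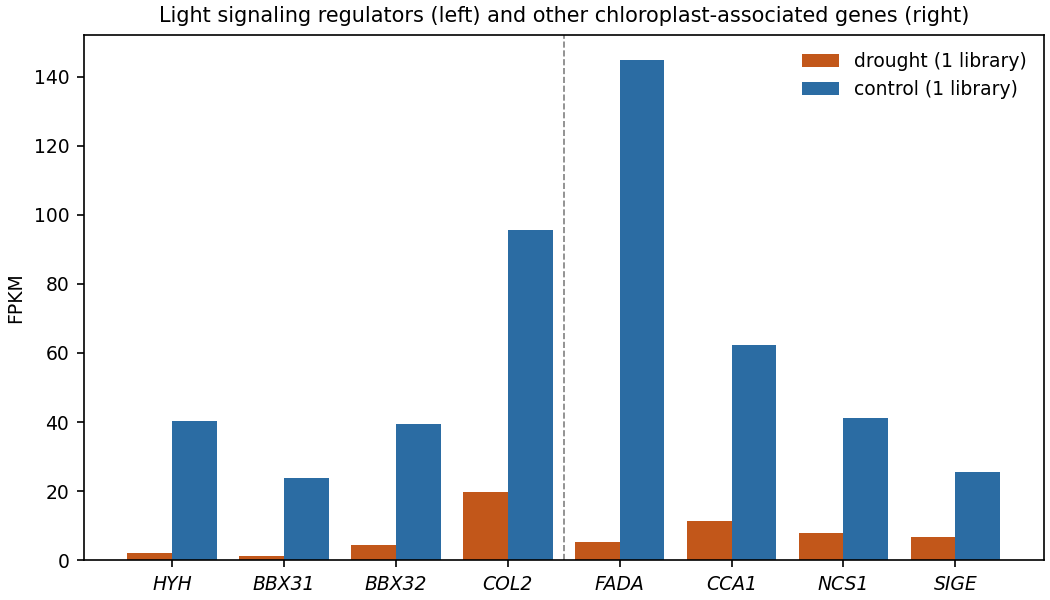
FPKM (linear axis from 0) of the 4 light signaling regulators, left of the dashed line, and of the other 4 chloroplast-associated genes. Each bar is 1 library, so there are no error bars, and in every pair the drought bar is lower, from 1.09 against 23.9 FPKM for BBX31 to 5.37 against 145 FPKM for FADA.

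The size of the change put HYH and BBX31 apart from COL2. Without the added constant, control FPKM exceeded drought FPKM 22.0-fold for BBX31, 19.5-fold for HYH, 8.83-fold for BBX32 and 4.81-fold for COL2. The order of HYH and BBX31 thus depends on the constant, while BBX32 and COL2 kept their places. The 4 levels were also less alike under drought. The highest stood 18.3-fold above the lowest in the drought library, and 4.01-fold in the control library. The summed FPKM of the 4 genes was 27.5 in drought and 199 in control plants, and COL2 made up 72.3% of it in drought and 48.0% in control plants.

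Among the 19661 genes, ordered from the largest decrease, HYH was at place 27, BBX31 at 38, BBX32 at 83 and COL2 at 242. Over the same genes, 318 or 1.62% were at least 4-fold lower in drought and 487 or 2.48% at least 4-fold higher. All 4 regulators lie within the first of these counts. Their selection implies a lower level in drought, but not a 4-fold one. Within each library, HYH exceeded 11.9% of these genes under drought and 80.6% in the control, and BBX31 exceeded 3.20% under drought and 69.3% in the control. BBX32 exceeded 25.7% of the genes under drought and 80.2% in the control. COL2 still exceeded 65.9% of them under drought, against 92.1% in the control.

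**Figure D2:**
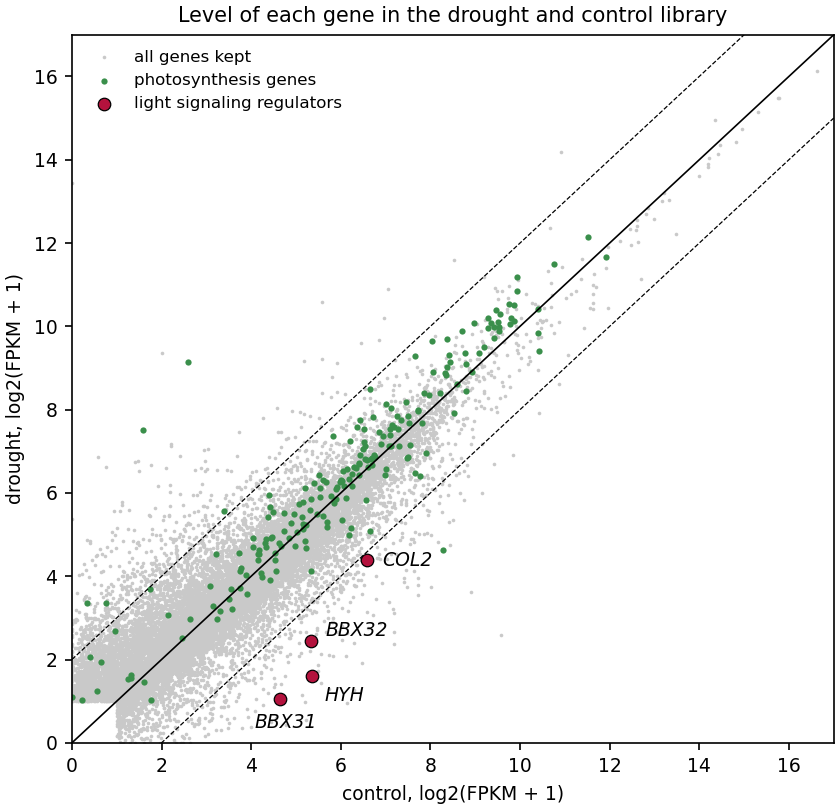
Level of each gene with an FPKM of at least 1 in either library, as log2(FPKM + 1), in the drought library (vertical axis) against the control library (horizontal axis). The solid line marks equal levels and the dashed lines 4-fold differences on this scale. The 4 regulators lie below the lower dashed line, and were selected for a lower level in drought. Between the dashed lines lie 199 of the 205 photosynthesis genes and 18856 of the 19661 genes kept.

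The Gene Ontology (GO) terms that the table pairs with the regulators overlap only in part. All 4 carry the term nucleus, HYH, BBX32 and COL2 carry the term for sequence-specific DNA binding transcription factor activity, and BBX31, BBX32 and COL2 carry zinc ion binding. Among the 1242 transcription factor genes kept, HYH had the lowest log2 ratio, BBX32 was at place 6 and COL2 at place 18. The list as a whole moved in both directions, with 29 genes (2.33%) at least 4-fold lower, 28 (2.25%) at least 4-fold higher and a median log2 ratio of 0.18. Without the 3 regulators, 26 of 1239 were at least 4-fold lower, where 1.62% of all genes kept were. The 1166 zinc ion binding genes had 21 at least 4-fold lower, 10 at least 4-fold higher and a median of -0.10. Without the 3 regulators that carry this term, 18 of 1163 (1.55%) were at least 4-fold lower, near the 1.62% of all genes kept. The 10 that were higher made up 0.860%, against 2.48% of all genes kept.

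HYH alone of the 4 carries the term response to UV-B. Of the 107 genes kept with this term, 6 were at least 4-fold lower in drought. At least 4-fold higher was 1 gene (0.935%), against 2.48% of all genes kept. Without HYH, 5 of 106 (4.72%) were at least 4-fold lower, against 1.62% of all genes kept, and the median log2 ratio was -0.10. The early light-inducible gene ELIP1 (Phvul.007G062000), which encodes a chlorophyll-binding protein of the thylakoid, was among them, with 393 FPKM in drought and 1876 FPKM in control plants. The gene Phvul.007G227500, with the terms flavonoid biosynthetic process and response to UV-B, had 7.05 FPKM in drought and 56.1 FPKM in control plants. The gene that was higher, Phvul.002G263900, carries terms of lignin and phenylpropanoid biosynthesis and had 14.2 FPKM in drought and 1.35 FPKM in control plants. These 3 genes were named after their values were seen.

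BBX32 is annotated with photomorphogenesis, regulation of flower development and response to chitin. Of 207 genes with the term photomorphogenesis, 2 were at least 4-fold lower, BBX32 included, and 4 (1.93%) at least 4-fold higher. Their median log2 ratio was -0.27, and BBX32 was the lowest of them. Without BBX32, 1 of 206 (0.485%) was at least 4-fold lower. Over all genes kept, 1.62% were at least 4-fold lower and 2.48% at least 4-fold higher. BBX32 and COL2 share the term regulation of flower development. Of its 269 genes, 3 were at least 4-fold lower, both regulators included, and 6 (2.23%) at least 4-fold higher. Without both regulators, 1 of 267 (0.375%) was at least 4-fold lower. The third gene that was lower, Phvul.006G029200, a transcription factor gene named after its value was seen, had 5.67 FPKM in drought and 27.8 FPKM in control plants. It also carries the terms photomorphogenesis and response to UV-B, so the lower counts of these terms share this gene.

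COL2 is annotated with chloroplast organization. Of the 138 genes kept with this term, 5 were at least 4-fold lower and 0 at least 4-fold higher, where 2.48% of all genes kept were higher. Without COL2 the count was 4 of 137 (2.92%), against 1.62% of all genes kept. The 138 genes had a median log2 ratio of -0.08 that became 0.02 at equal sums of FPKM in both libraries. The lowest were Phvul.008G259700, a protein kinase gene with 1.68 FPKM in drought and 24.3 FPKM in control plants, and Phvul.009G137600. Phvul.009G137600 is a plastid sigma factor gene with 3.63 FPKM in drought and 39.0 FPKM in control plants. The study assigns it to the same Arabidopsis ortholog as SIGE.

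BBX31 has only 4 terms, intracellular, nucleus, biological process and zinc ion binding, and 13 other genes carry exactly these. Of the 10 others that were kept, 9 differed less than 2-fold between the libraries, as did 81.7% of all genes kept. The remaining gene, Phvul.011G106300, had 0.926 FPKM in drought and 69.9 FPKM in control plants, a log2 ratio of -5.20, larger than that of BBX31. A single gene shared the full term set of HYH. It is Phvul.008G126200, with 2.18 FPKM in drought and 8.64 FPKM in control plants, and a log2 ratio of -1.60. The gene with the terms of COL2, Phvul.004G046600, had 1.03 FPKM in drought and 0.620 FPKM in control plants. Shared terms do not show that these genes are of the same family, and the 3 genes were named after their values were seen.

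Other B-box genes named by the study did not all go the same way. BBX28 (Phvul.005G110600) had 7.43 FPKM in drought and 36.6 FPKM in control plants, a log2 ratio of -2.16, close to that of COL2. BBX15 (Phvul.007G027200) had 30.6 FPKM in drought and 2.92 FPKM in control plants, a log2 ratio of 3.01. Both were listed by the study for their change in these libraries, so neither shows what B-box genes as a group did.

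Genes with a photoreceptor term were listed after the data had been seen, from the GO terms blue light photoreceptor activity (7 genes) and G-protein coupled photoreceptor activity, which the table gives to genes with the term detection of visible light (4 genes). The genes with the blue light photoreceptor term include a protein kinase gene with the term phototropism, and ubiquitin ligase genes. FKF1 carries neither photoreceptor term and was left out. Of these 11 genes, 10 differed less than 2-fold, as did 81.7% of all genes kept. The log2 ratios ran from -1.15 to 0.53. The exception was Phvul.003G274800, a protein kinase gene with the terms blue light photoreceptor activity and phototropism. It had 22.6 FPKM in drought and 51.4 FPKM in control plants. Of the 11 genes, 10 were lower in drought by any amount, among them all 7 with the blue light term. The share over all genes kept was 52.0%. Neither list had a gene that was at least 4-fold lower. The share of such genes over all genes kept was 1.62%, and 11 genes are too few to set against either share.

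The wider light response list holds 672 kept genes with a term for red, far-red, blue or UV-B light, light stimulus or photomorphogenesis. Of these, 12 (1.79%) were at least 4-fold lower and 15 (2.23%) at least 4-fold higher, shares near the 1.62% and 2.48% of all genes. Without HYH and BBX32 the count was 10 of 670 (1.49%) lower. The median log2 ratio of the list was -0.10, and it was -0.002 at equal sums of FPKM. HYH, Phvul.009G137600 and BBX32 had the lowest ratios. The largest increases were those of KDR (Phvul.003G067500), Phvul.009G133600 and ELF4 (Phvul.001G242900). KDR, an atypical bHLH protein of light signaling, had 27.8 FPKM in drought and 1.58 FPKM in control plants. Phvul.009G133600, a copper-binding protein gene annotated with photomorphogenesis, had 60.4 FPKM in drought and 5.88 FPKM in control plants.

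The photosynthesis genes, which were listed by annotation and not by their change, were set beside the 4 regulators. Of 222 genes with a GO term that begins with photosynthesis, 205 were kept, and none of the 4 regulators carries such a term. Their median log2 ratio was 0.32, and 157 (76.6%) were higher in drought, against 48.0% of all genes kept. In the list, 1 gene (0.488%) was at least 4-fold lower and 5 (2.44%) were at least 4-fold higher, against 1.62% and 2.48% of all genes kept. The median level of the list was 84.8 FPKM in drought, above the drought level of each regulator. In control plants it was 72.9 FPKM, below the 95.7 FPKM of COL2 and above the levels of HYH, BBX31 and BBX32. For the 4 regulators the median log2 ratio was -3.23. Its negative sign follows from their selection, so the difference between both sets was not tested.

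As a check of the labelled aerial tissue, the median level of the photosynthesis list can be set beside that of all genes kept, 11.5 FPKM in drought and 11.6 FPKM in control plants. The 5 most abundant genes were picked for their level. The most abundant, Phvul.005G055200, a photosystem II gene of the oxygen evolving complex, had 4539 FPKM in drought and 2918 FPKM in control plants. The light-harvesting gene Phvul.002G196400 had 3221 FPKM in drought and 3855 FPKM in control plants. The photosystem I gene Phvul.008G054400 had 1851 FPKM in drought and 977 FPKM in control plants. The other 2 of the 5 most abundant were Phvul.011G039100, with a term for fructose-bisphosphate aldolase, and Phvul.001G234300, with log2 ratios of 0.73 and 1.23. Of these 5 genes, 4 had a higher level in drought.

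By term, the 95 genes of the photosynthetic light reaction had a median log2 ratio of 0.47, and the 25 genes of light harvesting 0.32. Neither had a gene at least 4-fold lower, and at the 1.62% of all genes kept such lists would hold few. At least 4-fold higher were 3 light reaction genes (3.16%) and 0 light harvesting genes, against 2.48% of all genes kept. The 5 genes of light harvesting in photosystem I had a median of 0.64, and the only dark reaction gene had -0.54. The 6 genes of light harvesting in photosystem II had a median of -0.04, with 3 of them lower in drought. Their median level was low, 5.76 FPKM in drought and 4.86 FPKM in control plants. For photosystem I it was 620 FPKM in drought and 223 FPKM in control plants. The 141 genes with the exact term photosynthesis had a median of 0.33. These divisions were added after the data had been seen.

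The extremes of the photosynthesis list include genes that also carry terms from outside photosynthesis. Phvul.008G093700, annotated with iron binding and reactive oxygen species, had 23.9 FPKM in drought and 312 FPKM in control plants, a log2 ratio of -3.65, between those of HYH and BBX31. The next were Phvul.007G044500 at -1.55 and the light-harvesting gene Phvul.002G264600 at -1.36. The 2 largest increases, Phvul.009G227800 with 565 FPKM in drought and 4.98 FPKM in control plants and Phvul.003G131400 with 182 FPKM in drought and 2.01 FPKM in control plants, carry terms for the cell wall and the extracellular region beside the term photosynthesis, light reaction. The third, Phvul.009G200900, had 9.31 FPKM in drought and 0.264 FPKM in control plants.

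**Figure D3:**
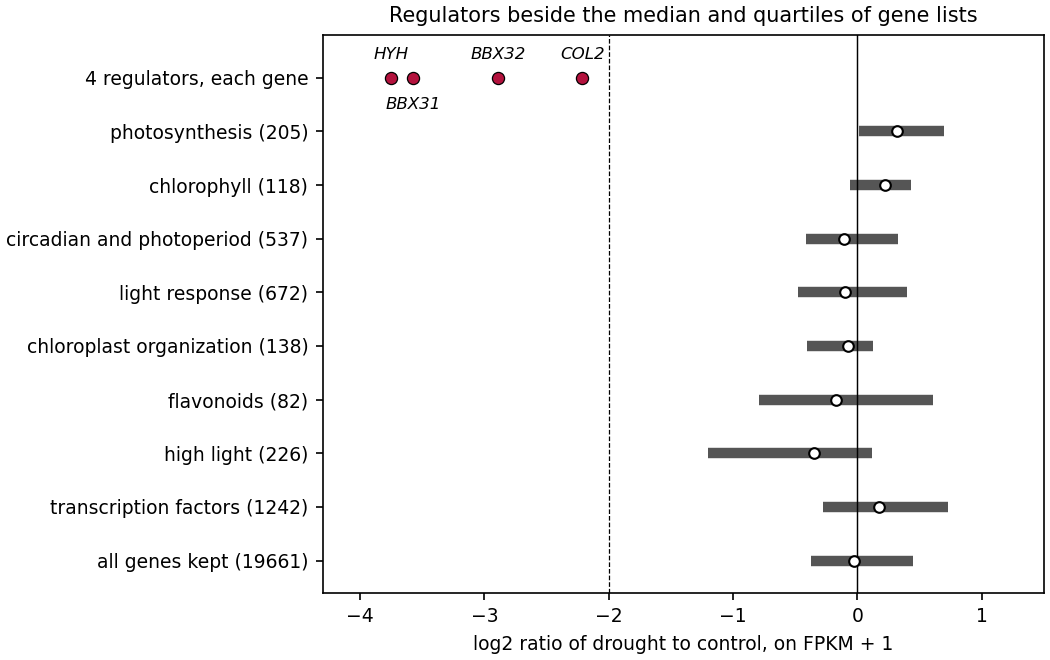
Log2 ratio of drought to control (FPKM + 1) of each regulator, and the median (open circle) with the quartiles (bar) of each gene list, with the number of genes kept in brackets. The dashed line marks 4-fold lower, and every regulator lies to its left. The regulators were selected for a lower level in drought. The photosynthesis median is 0.32 and the median of all genes -0.03.

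FADA, CCA1, NCS1 and SIGE are the other chloroplast-associated genes of the same representative list, and these too were chosen on their values here. FADA (Phvul.006G040800), a desaturase for a phosphatidylglycerol of thylakoid membranes, had 5.37 FPKM in drought and 145 FPKM in control plants, a larger change than any of the 4. CCA1 (Phvul.009G259600), a morning-phased clock factor in Arabidopsis, had 11.4 FPKM in drought and 62.3 FPKM in control plants. NCS1 (Phvul.007G226300), a plastid nucleobase transporter, had 8.01 FPKM in drought and 41.2 FPKM in control plants. SIGE (Phvul.001G061400), a sigma factor of the plastid RNA polymerase, had 6.57 FPKM in drought and 25.5 FPKM in control plants, and its log2 ratio of -1.81 is the only one of these 8 that does not reach 4-fold.

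PRR5, ELF4, PCL1, FKF1 and RVE7 are clock-related genes that were also taken from the study's list of changed genes. PRR5 had 38.0 FPKM in drought and 5.06 FPKM in control plants, and ELF4 had 92.6 FPKM in drought and 9.97 FPKM in control plants. PCL1 had 21.8 FPKM in drought and 4.07 FPKM in control plants. FKF1, a blue light-sensing ubiquitin ligase component, had 41.9 FPKM in drought and 6.89 FPKM in control plants. RVE7, a CCA1-related factor, had 6.45 FPKM in drought and 55.4 FPKM in control plants. Of 128 genes with the term circadian rhythm, 93 (72.7%) differed less than 2-fold, against 81.7% of all genes kept. In this list 5 (3.91%) were at least 4-fold lower and 7 (5.47%) at least 4-fold higher, against 1.62% and 2.48% of all genes kept. The median changed sign with the scaling of the libraries, from -0.04 in FPKM to 0.06 at equal sums. The part of the clock genes in the levels of the 4 regulators was not tested.

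Among the other lists, response to high light intensity held the largest share of genes at least 4-fold lower, 26 of 226 (11.5%, against 1.62% of all genes kept), with 2 (0.885%) at least 4-fold higher and a median log2 ratio of -0.35. Its part in the result was not tested. The flavonoid list had 4 of 82 genes (4.88%) at least 4-fold lower and 2 (2.44%) at least 4-fold higher, with a median of -0.17. The chlorophyll biosynthesis list had 1 of 118 (0.847%) at least 4-fold lower, 0 higher and a median of 0.23. The senescence list had 5 of 113 (4.42%) lower and 1 (0.885%) higher, with a median of -0.09. The circadian and photoperiod list, which includes BBX32 and COL2, had 10 of 537 (1.86%) lower and 12 (2.23%) higher, with a median of -0.11. Over all genes kept, 1.62% were lower and 2.48% higher.

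**Figure D4:**
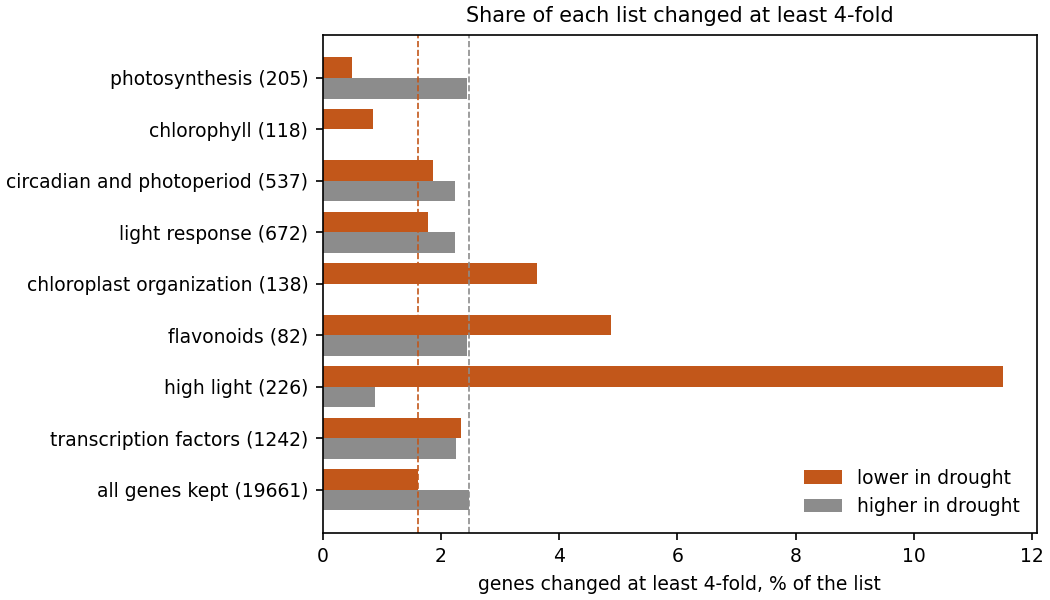
Percent of the genes kept in each list that were at least 4-fold lower or at least 4-fold higher in drought; dashed lines mark 1.62% and 2.48%, the shares over all 19661 genes. The light response list is close to both lines, and the high light list has 11.5% lower.

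The genes nearest to each regulator in both levels were of unlike annotation. For HYH the nearest was Phvul.010G092500, a ubiquitin ligase gene with 2.09 FPKM in drought and 39.8 FPKM in control plants, at a distance of 0.02 on the log2(FPKM + 1) scale. Phvul.001G112700 and Phvul.006G037000 came next, at 0.16 and 0.27. For BBX31 the nearest were Phvul.010G083700, the transcription factor gene Phvul.006G116000 and the kinase gene Phvul.008G259700, at 0.29, 0.30 and 0.36. For BBX32 they were Phvul.003G048900, annotated with response to brassinosteroid, Phvul.006G079600 and Phvul.009G132900, at 0.05, 0.07 and 0.19. For COL2 they were Phvul.003G045600, a transcription factor gene with the term leaf senescence, which had 18.5 FPKM in drought and 96.5 FPKM in control plants, then Phvul.007G206300 and Phvul.002G158900, at 0.10, 0.11 and 0.12. Likeness over 2 libraries is a description of levels and was not tested.

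Of the 8 listed genes that flank the regulators on their chromosomes, 7 had control levels under 3 FPKM, below which a 4-fold decrease cannot be reached on this scale. The other, Phvul.008G254500, was not 4-fold lower. Beside HYH, Phvul.010G018100 was listed at 0 in both libraries, and Phvul.010G018300 had 0.776 FPKM in drought and 0.275 FPKM in control plants. Both neighbours of BBX31 were near or below 1 FPKM, with 1.04 FPKM in drought and 0.363 FPKM in control plants for Phvul.005G113100, and 0.263 FPKM in drought and 0.0164 FPKM in control plants for Phvul.005G113300. Phvul.005G113300 starts 947 bases beyond BBX31 and carries the zinc ion binding and transcription factor terms. Beside BBX32, Phvul.008G254300 had 0.509 FPKM in drought and 0.129 FPKM in control plants, and Phvul.008G254500 had 10.6 FPKM in drought and 15.5 FPKM in control plants. Beside COL2, Phvul.008G022700 had 7.83 FPKM in drought and 1.98 FPKM in control plants, and Phvul.008G022900 had 0.906 FPKM in drought and 0.796 FPKM in control plants.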

How the data were processed

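The authors trimmed the reads, aligned them with TopHat and compared drought with control by Cuffdiff, which gave the deposited FPKM values, 1 per gene and condition. The submitters' processing notes also name CASAVA 1.8.2 and FastQC. The deposited table gives no read counts, so depth per gene is unknown here, and no interval can be given. The sample labels speak of more than 1 library per treatment, but the table holds 1 value per condition. The authors' fold change, test statistic, P and q columns hold their own comparison and were not used. No column of sample values was left out (0).

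The log2 ratio used a pseudocount of 1 FPKM, and lists were summarised over genes with an FPKM of at least 1 in either library. Lists were made by GO term; the term text stops at 1024 characters in 227 genes. The genes named were the 4 regulators, the other 4 chloroplast-associated genes, the 5 photosynthesis genes with the highest mean FPKM and the 3 largest changes in each direction, the 3 largest light response changes in each direction, the 3 genes nearest in level and the flanking genes; others are marked as chosen after their values were seen, or are genes the study names. The part of the rule on reference gene families was not used here. Members and lists were chosen with earlier results of these data known. Counting was tested on simulated data. Python 3.11.15, pandas 2.3.3, numpy 2.4.6 and matplotlib 3.10.9 were used. Alternatives were other pseudocounts, scalings, filters and fold limits.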

Additional observations from a re-analysis of the deposited data

How the results depend on the processing

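With 1 library per condition, no replicate could be left out. No paired analysis was possible because each condition has 1 value per gene and no test was made. Of 8 alternatives for the regulators, 3 only filter genes and leave each ratio as it is. Under the other 5, each regulator was at least 4-fold lower in drought, with log2 ratios from -4.28 to -3.55 for HYH, -4.44 to -3.34 for BBX31, -3.14 to -2.74 for BBX32 and -2.27 to -2.10 for COL2. The median of the 4, -3.23, was -3.67 and -3.71 with pseudocounts of 0.1 and 0.01, -3.17 after scaling by the 75th percentile, -3.04 at equal sums and -3.20 after centring on the median of all genes. The photosynthesis median, 0.32, was 0.35 with either pseudocount, 0.39 after 75th percentile scaling, 0.42 at equal sums, 0.35 after centring, 0.30 with an FPKM of at least 1 in both libraries, 0.30 with no filter and 0.33 for the exact term. The 318 genes at least 4-fold lower became 495 and 519 with pseudocounts of 0.1 and 0.01, and 1298 at a limit of 2-fold. The 487 genes at least 4-fold higher became 1303, 1413 and 2309 in the same settings, and 309 with an FPKM of at least 1 in both libraries. The share of higher against lower calls therefore depends on the pseudocount, which acts on genes of low level such as BBX31 in drought. No value here can separate a difference between conditions from one between 2 pools. For HYH, the study also reports a lower level under drought by semi-quantitative RT-PCR, on RNA of separate experiments.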
